A study of Homo sapiens with 9 samples.

Results

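The genes described here encode the machinery of mitosis and chromosome segregation: cyclins and kinases of mitotic entry, the spindle checkpoint, kinetochore and centromere proteins, spindle motors, condensins and cytokinesis factors. Of 48 listed genes, 47 were measured by a probe set annotated to that gene alone, out of 18417 genes on the array. CENPA, the centromeric histone H3 variant, shared its probe set with SLC35F6 in the annotation and was left out. Members were chosen by name, and the brightest probe set stood for a gene. BIRC5 was the 1 member with 2 probe sets.

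The samples were Hep3B cells, an established human hepatocellular carcinoma line, measured as total RNA on 9 Affymetrix arrays. There were 3 arrays in each of 3 groups: untreated, transfected by Oligofectamine with a nonsense siRNA, and likewise transfected with an siRNA specific to YAP. All cultures had 24 h of growth in full medium, and transfected cells had 24 h more before RNA was taken. No genotype other than the line's own was given, and although HUH stands at the start of the titles, the line is taken as Hep3B, the name in the cell line field. Nothing in the labels says that the 3 samples of a group were separate cultures, so p-values measure the spread between these samples, which may be technical. The number of arrays limits the precision.

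Mitotic genes are transcribed mostly in late S, G2 and M phase. As background, the MuvB complex with B-MYB and FOXM1 activates them through a short promoter element, the cell cycle genes homology region (CHR), with help from the factor NF-Y at CCAAT boxes. In dividing hepatoma cells these transcripts therefore track the share of cells in the later cell cycle. YAP, the coactivator that the Hippo pathway restrains, works with TEAD factors and is known for driving growth of liver cells. In bulk RNA, fewer cells in mitosis and less RNA of these genes per cell cannot be told apart.

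Promoters of 41 of the 48 genes were found in the RefSeq table (GRCh38.p14), as 50 promoters, since some genes have several starts. The 250 bases before the start were searched on both strands for TTTGAA and its variant TTCGAA (CHR), for CCAAT, for the TEAD core GGAATG and for 4 E2F sites, namely TTTGGCGC and TTTCGCGC and also TTTCCCGC and TTTGCCGC. None of the searched motifs overlaps another in the sequences printed. TTTGAA was in 25 of the 50 promoters (50%) against 13.3% of all 35116 promoters, and CCAAT in 34 (68%) against 32%. Both were present in 20 (40.0%), against 4.7% of all. GGAATG was in 7 (14%, all promoters 11.9%), an E2F site in 3 (6.0%, all promoters 2.8%) and TTCGAA in 0 (all promoters 1.2%). A match is a description of these letters and not a binding site. The promoters of KIF23, ASPM, CDK1 and CDC20 are shown because KIF23 was the only member that passed, ASPM and CDK1 were among the largest differences, and CDC20 had another order of the groups. All 4 hold both TTTGAA and CCAAT, which does not stand for the members with large differences. NDC80, lowest against nonsense siRNA at -0.25, holds neither, and MAD2L1, at -0.23, holds CCAAT without TTTGAA. Capitals mark TTTGAA and CCAAT, or TTCAAA and ATTGG where the motif lies on the opposite strand, and the sequences run 5′ to 3′ on the gene's strand up to the base before the start.
KIF23 (chr15:69414099-69414348, + strand): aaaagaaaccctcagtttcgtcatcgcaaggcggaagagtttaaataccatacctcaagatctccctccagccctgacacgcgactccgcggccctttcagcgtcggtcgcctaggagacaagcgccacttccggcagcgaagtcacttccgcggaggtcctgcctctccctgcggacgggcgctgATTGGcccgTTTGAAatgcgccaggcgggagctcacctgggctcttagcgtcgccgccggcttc
ASPM (chr1:197146670-197146919, - strand): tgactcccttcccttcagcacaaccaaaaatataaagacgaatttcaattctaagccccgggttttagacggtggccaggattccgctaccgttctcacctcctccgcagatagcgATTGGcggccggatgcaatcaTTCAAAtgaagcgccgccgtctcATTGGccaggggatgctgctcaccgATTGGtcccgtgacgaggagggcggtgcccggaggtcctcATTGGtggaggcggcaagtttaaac
CDK1, the first of its 2 listed starts (chr10:60778081-60778330, + strand): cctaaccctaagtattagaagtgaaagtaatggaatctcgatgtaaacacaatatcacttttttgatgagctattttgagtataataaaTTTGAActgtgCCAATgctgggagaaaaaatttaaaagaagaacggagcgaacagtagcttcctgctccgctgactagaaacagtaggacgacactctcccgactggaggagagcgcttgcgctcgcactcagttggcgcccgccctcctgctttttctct
CDC20 (chr1:43358731-43358980, + strand): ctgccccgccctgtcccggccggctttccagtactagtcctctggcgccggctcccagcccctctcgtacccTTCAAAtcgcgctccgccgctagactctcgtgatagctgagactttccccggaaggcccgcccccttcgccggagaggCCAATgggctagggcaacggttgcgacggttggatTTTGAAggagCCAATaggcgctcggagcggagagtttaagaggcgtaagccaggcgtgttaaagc
In KIF23 the CHR letters begin 55 bases before the start and the CCAAT match 64 bases before it. ASPM holds 4 CCAAT matches on the opposite strand around 1 CHR match, which begins 113 bases before the start. CDC20 holds 2 CHR matches, beginning 65 bases before the start on the same strand and 178 on the opposite strand, and 2 CCAAT matches on the same strand, 100 and 55 bases before it.

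The knockdown itself was present in all 3 YAP siRNA arrays. YAP1 signals were 8.78, 8.62 and 8.69 in untreated cells, 8.66, 8.75 and 8.68 after nonsense siRNA, and 7.54, 7.52 and 7.48 after YAP siRNA, on a log2 scale. The YAP siRNA arrays lay far under both control groups, and YAP1 fell by 1.18 against nonsense siRNA (SE 0.0548, limma adjusted p = 4.34e-09) to 44.0% of its level. A two-sided exact permutation test of the 3 YAP siRNA arrays against all 6 control arrays gave p = 0.0119. Of 17 hepatocyte and hepatoma markers, 16 were measured and all 16 were brighter than the median gene (7.31). They ran from ASGR1 at 7.74 to KRT8 at 12.635, with AFP at 12.39 and ALB at 11.51. Of 11 measured leukocyte and 13 stromal and endothelial markers, 2 and 2 were brighter than the median gene. These were LYZ at 8.91 and CD68 at 8.005, and COL1A1 at 8.39 and COL1A2 at 8.37, all brighter than ASGR1. The pan-leukocyte gene PTPRC was the dimmest leukocyte marker, at 5.99.

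All 47 mitosis genes were brighter than the median gene, between the 57th and the 98.2nd percentile of all genes. NCAPG, a condensin subunit gene, was the brightest with a mean of 10.32, and HMMR, which encodes a spindle-associated protein, the dimmest at 7.54. Signals of different probe sets are not set per length, so this is an order of probe brightness and not of transcript levels. Within groups the members' spread was a little wider than that of other genes: the median SD was 0.0865, against 0.0759 over the 7926 genes as bright as the dimmest member or brighter. CDK1 varied most (SD 0.19) and TRIP13 least (SD 0.0387). The spread was not alike in the 3 groups, with a median SD of 0.0563 in untreated cells, 0.0943 after nonsense siRNA and 0.0776 after YAP siRNA, where all genes had 0.0646, 0.0627 and 0.0637.

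When YAP siRNA was compared with nonsense siRNA, which asks what lowering YAP1 did in transfected cells, only KIF23 of the 47 mitosis genes passed. KIF23 encodes the kinesin of the centralspindlin complex, which organises the midzone for cytokinesis. Its signals were 9.96, 9.98 and 10.04 in untreated cells, 10.16, 10.06 and 10.24 after nonsense siRNA, and 9.97, 9.96 and 9.83 after YAP siRNA. The nonsense siRNA arrays lay above all other arrays, while the YAP siRNA and untreated arrays overlapped. KIF23 fell by 0.23 (SE 0.0601, 95% CI -0.36 to -0.11, limma adjusted p = 0.0353), which left 85.0% of the nonsense siRNA level. That is 1 member of 47 lower and 0 higher, where 4.53% of all genes passed, 2.61% lower. Leaving out single arrays ended the call in 6 of 9 fits: without untreated replicate 2 (adjusted p = 0.0555), nonsense siRNA replicate 1 (0.142) or 3 (0.172), or YAP siRNA replicate 1 (0.0633), 2 (0.0697) or 3 (0.146). It was also lost with arrays centred on their median (0.0696), with all probe sets tested (0.129) and with only the 6 arrays compared (0.0624). A small RNA covariate (0.0541) or the replicate number as a block (0.0579) ended the call as well.

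The members as a group sat slightly lower after YAP siRNA than after nonsense siRNA. The median difference was -0.09 over the 47 members and 0.01 over all genes. It was below 0 in 42 members, against 44.3% of all genes, and above 0 in 5 (55.7%). At an unadjusted p under 0.05 there were 12 lower and 0 higher, against 7.69% and 8.08% of all genes (15.8% in either direction). In 7 members the YAP siRNA arrays lay under all nonsense siRNA arrays without overlap (8.71% of all genes), and in BIRC5 alone they lay above them (11.5% of all genes). The 7 were KIF23, ASPM, KIF4A, ANLN, SMC4, PLK1 and FOXM1.

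**Figure D1:**
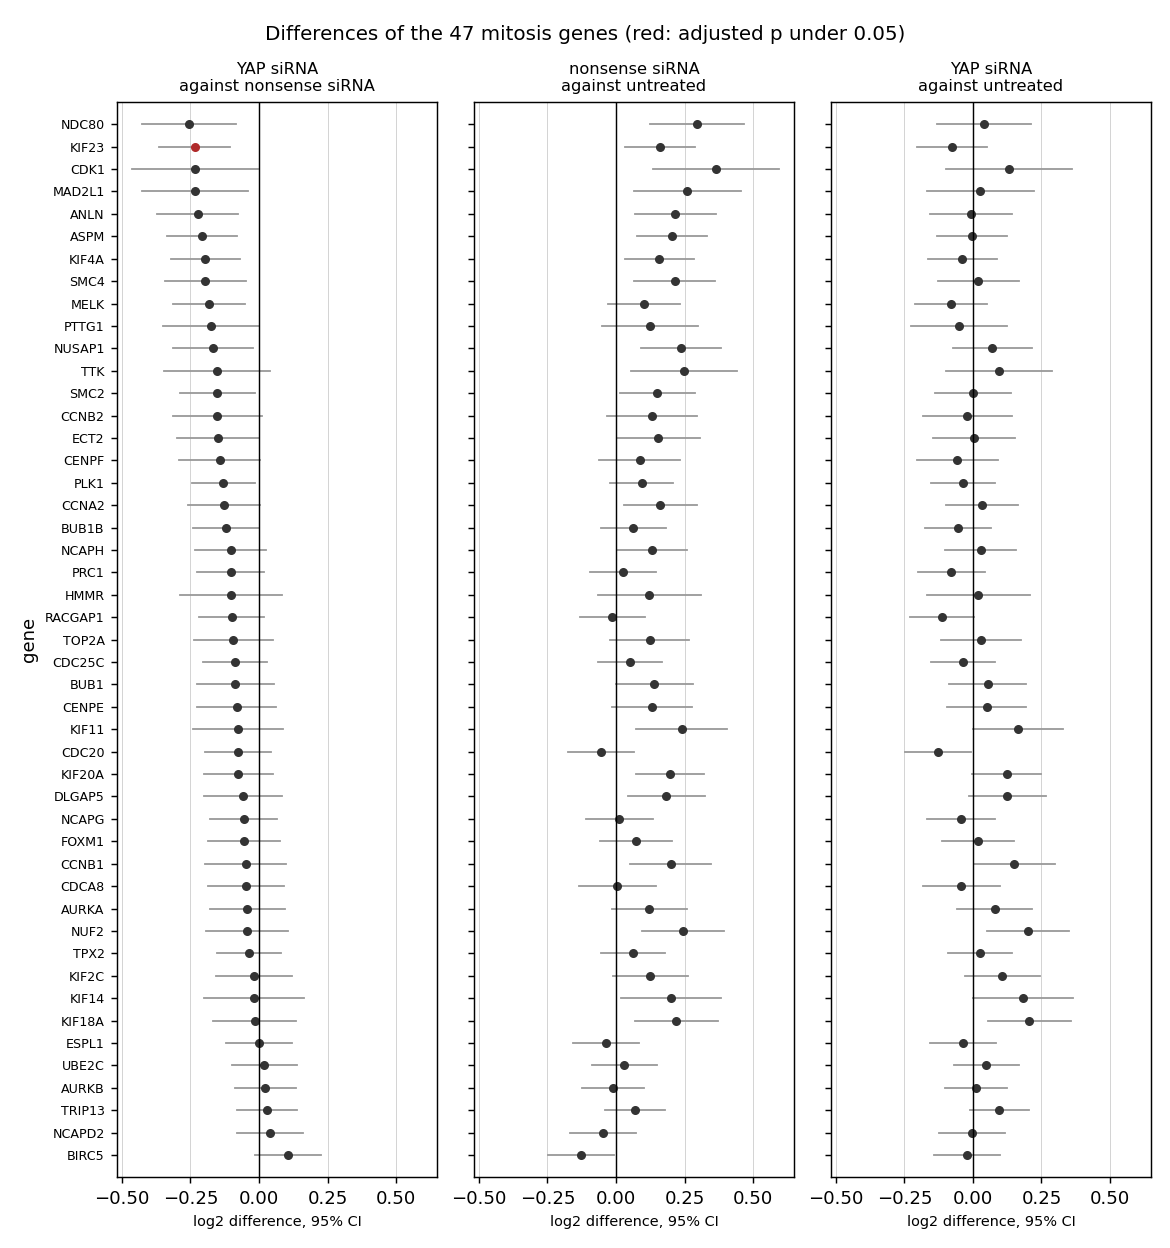
Log2 differences of the 47 mitosis genes in 3 pairwise comparisons (x axis, points with 95% CI; y axis, genes ordered by the first panel; red marks an adjusted p under 0.05). Most points lie left of 0 in the first panel and right of 0 in the second, on both sides of 0 in the third, and KIF23 in the first panel is the only red point.

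Against untreated cells, the control without transfection, no mitosis gene passed after YAP siRNA. By limma the count was 0 of 47, where 3.09% of all genes passed (1.63% higher and 1.46% lower), and at an unadjusted p under 0.05 there were 3 higher and 1 lower (all genes 8.59% and 7.18%). The median difference was 0.02, with -0.01 over all genes, and 27 members were above 0 and 20 below (43.6% and 56.4% of all genes). In AURKA, TRIP13, UBE2C, NUF2 and KIF18A the YAP siRNA arrays lay above all untreated arrays (10.2% of all genes), and in 0 members below them (10.3%). KIF18A, a kinesin that dampens chromosome movements, had the largest value at 0.21 (95% CI 0.05 to 0.36, limma adjusted p = 0.156), and CDC20, the APC/C activator of anaphase, the lowest at -0.13 (95% CI -0.25 to -0.01, limma adjusted p = 0.277). KIF23 was at -0.08 here (95% CI -0.20 to 0.05, limma adjusted p = 0.587). For untreated cells no time beyond the 24 h of growth is given, while transfected cells had 24 h more. Transfection and time in culture therefore cannot be told apart in a comparison with untreated cells. Against the mean of both control groups 0 of 47 passed by limma (4.37% of all genes, 2.26% higher and 2.11% lower). At an unadjusted p under 0.05 there were 4 lower and 0 higher (6.62% and 7.84%, together 14.5%), and 33 members were below 0 and 14 above (51.4% and 48.6%), with a median of -0.04. In 0 members did the YAP siRNA arrays lie below or above all 6 controls (3.61% and 4.29%).

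The comparison of the controls with each other gave the widest differences among these genes. Here too transfection and time in culture cannot be told apart. After nonsense siRNA 41 of 47 members were above their untreated level (40.7% of all genes) and 6 below it (59.3%), with a median of 0.13 where all genes had -0.02. By limma 0 of 47 passed (0.614% of all genes, 0.337% higher and 0.277% lower). At an unadjusted p under 0.05 there were 21 higher and 1 lower, against 9.87% and 9.66% of all genes (together 19.5%). In 14 members the nonsense siRNA arrays lay above all untreated arrays (8.9% of all genes) and in CDC20 and BIRC5 they lay below them (13.8%). The largest value was that of CDK1, at 0.36 (95% CI 0.13 to 0.59, limma adjusted p = 0.115). The nonsense siRNA group had the highest mean in 39 of 47 members (83.0%), against 27.4% of all genes. The lowest mean was untreated in 26 (28.3% of all genes), YAP siRNA in 18 (29.3%) and nonsense siRNA in 3 (42.3%). These comparisons share arrays: the nonsense siRNA group enters both those in which the members stood apart.

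The members also differed between arrays of 1 group. Each gene was set against its own mean over 9 arrays, and the median over the 47 members was taken per array. It was -0.03, -0.03 and -0.07 in untreated replicates 1 to 3, 0.12, -0.01 and 0.12 after nonsense siRNA, and 0.02, 0.02 and -0.12 after YAP siRNA. Nonsense siRNA replicates 1 and 3 were thus high and YAP siRNA replicate 3 was low, while nonsense siRNA replicate 2 lay under YAP siRNA replicates 1 and 2. On this measure the nonsense siRNA arrays lay above all untreated arrays, replicate 2 by a narrow margin, while the YAP siRNA arrays overlapped both other groups.

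**Figure D2:**
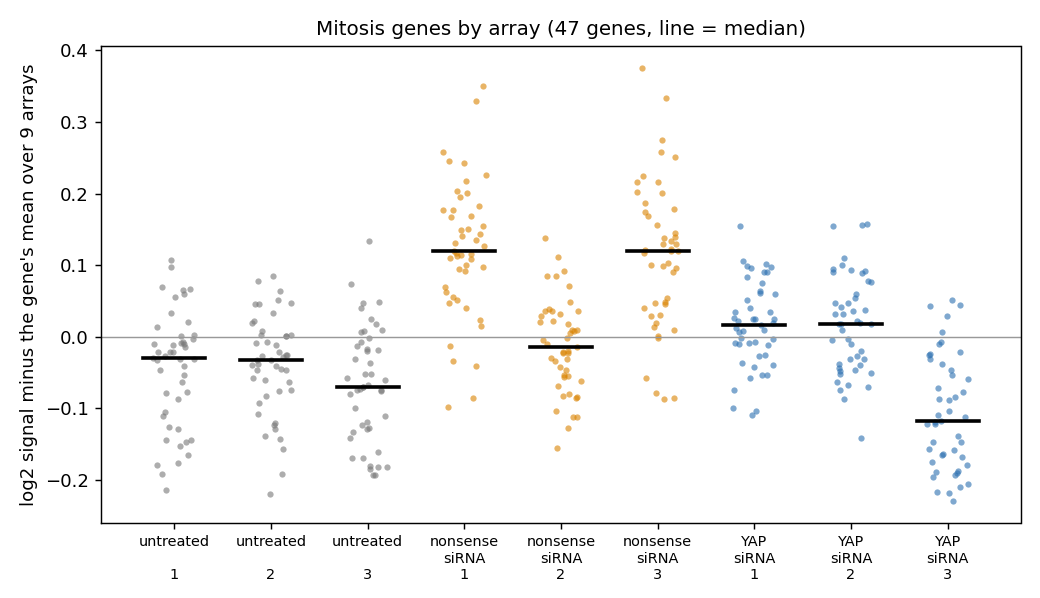
Log2 signal of the 47 mitosis genes in each array, minus the gene's mean over the 9 arrays (y axis), by group and replicate (x axis); points are genes and black lines are medians. The medians of nonsense siRNA replicates 1 and 3 are at 0.12 and that of YAP siRNA replicate 3 at -0.12, with the other 6 between -0.07 and 0.02.

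Gene by gene the picture was the same. In 26 of 47 members (55.3%) both nonsense siRNA replicates 1 and 3 lay above all untreated and YAP siRNA arrays, against 10.8% of all genes. Nonsense siRNA replicate 2 was below both others of its group in 38 members (80.9%, all genes 33.8%), and YAP siRNA replicate 3 below both others of its group in 40 (85.1%, all genes 34.9%). The highest of the 9 values was in nonsense siRNA replicate 3 for 22 members and in replicate 1 for 16, and the lowest was in YAP siRNA replicate 3 for 21. For these counts the share over all genes was not taken. These patterns were chosen after the values were seen and are given as a description.

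**Figure D3:**
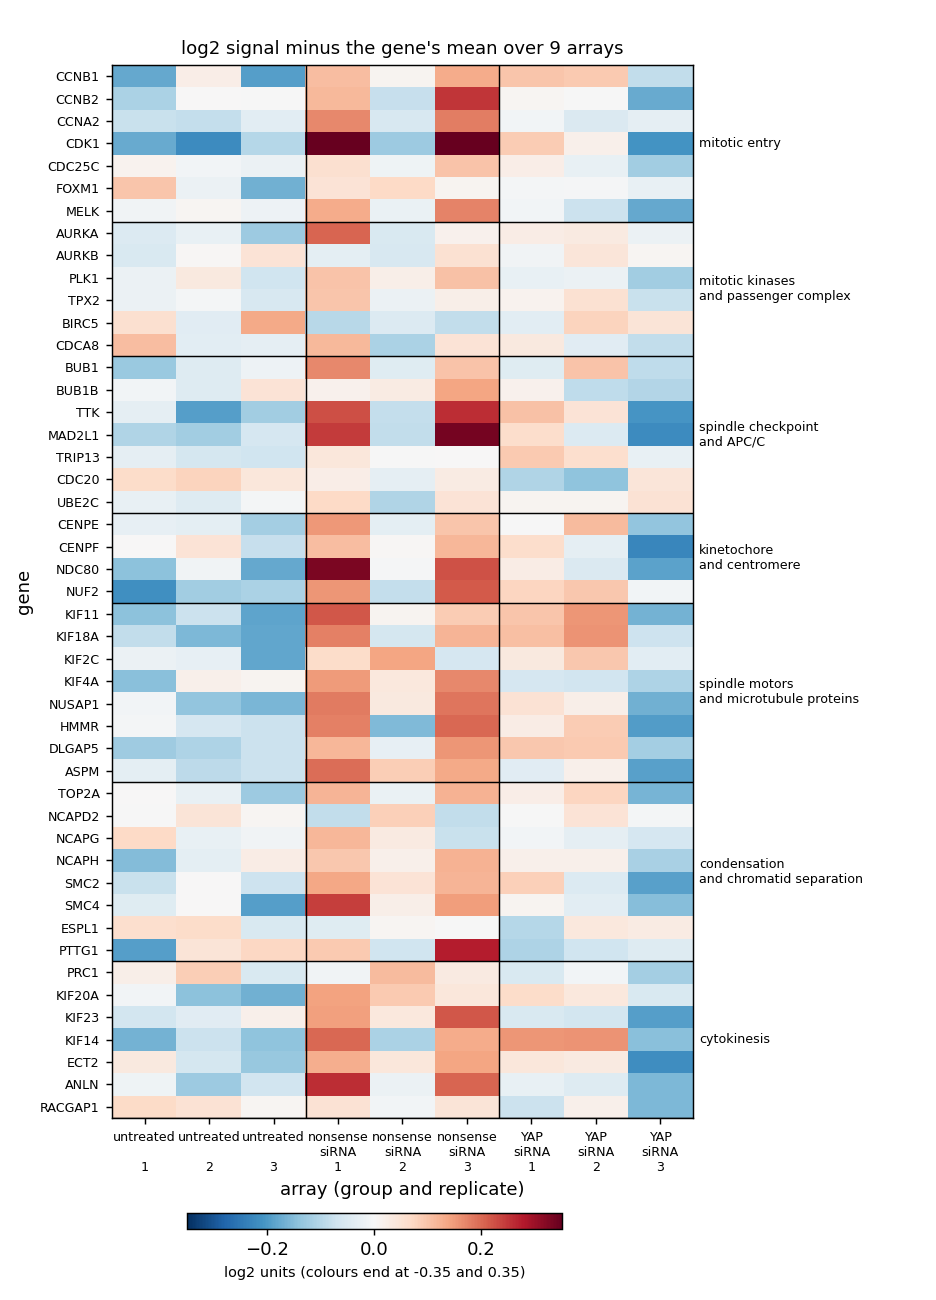
Heat map of the 47 mitosis genes (rows, by role) in the 9 arrays (columns), as log2 signal minus the gene's mean over the arrays; red is above and blue below that mean. Columns of nonsense siRNA replicates 1 and 3 are mostly red and that of YAP siRNA replicate 3 mostly blue, while AURKB, BIRC5, CDC20, UBE2C, KIF2C, NCAPD2, NCAPG, ESPL1 and PRC1 do not follow all of these.

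The counts depended on which arrays were in the fit. Without nonsense siRNA replicate 2, 10 members passed in YAP siRNA against nonsense siRNA, all lower (6.68% of all genes passed), and 14 in nonsense siRNA against untreated cells, all higher (7.98%), while NUF2 alone passed against untreated cells, higher (4.01%), and 0 against both controls by limma (5.11%). The first 10 were CCNA2, CDK1, MELK, MAD2L1, NDC80, KIF4A, ASPM, SMC4, KIF23 and ANLN. Without YAP siRNA replicate 3 the first comparison had 0 members by limma (3.17% of all genes), its median went from -0.09 to -0.05, and against untreated cells KIF11 and KIF18A passed, both higher (4.21%); 0 passed between the controls (1.24%) or against both controls (3.63%). With array weights 11, 5, 20 and 1 members passed in YAP siRNA against nonsense siRNA, YAP siRNA against untreated cells, nonsense siRNA against untreated cells and YAP siRNA against both controls, where 13.1%, 9.55%, 14.2% and 10.7% of all genes did. Leaving out 1 array per group (the second nonsense siRNA, the third YAP siRNA and the third untreated array) gave 9, 7, 21 and 1 in the same order, against 6.99%, 8.47%, 12.6% and 6.17%. Those arrays were chosen with earlier results known, so the counts of that fit are a description. At an adjusted p under 0.10 the counts were 5, 0, 1 and 0 (6.5%, 4.8%, 2.38% and 6.2%). Other levels moved by array too. The median deviation of hepatocyte and hepatoma markers was 0.06, -0.06 and 0.06 in nonsense siRNA replicates 1 to 3, between -0.03 and 0.001 in untreated arrays, and 0.02, 0.0012 and -0.04 after YAP siRNA, so that nonsense siRNA replicates 1 and 3 were high here as well. For G1/S genes it was 0.07, 0.0094 and 0.12 after nonsense siRNA and -0.07 in YAP siRNA replicate 3. For 192 small nucleolar and Cajal body RNA genes it was -0.06 in untreated replicate 3 and in YAP siRNA replicate 3 and between -0.01 and 0.04 elsewhere. With that level as a covariate the members' median was -0.06 for YAP siRNA against nonsense siRNA and 0.07 for nonsense siRNA against untreated cells, with 0 members passing in any of the 4 comparisons by limma (4.48%, 3.6%, 0.13% and 5.75% of all genes). Leukocyte markers had array medians of 6.71 to 6.77 in untreated cells, 6.65 to 6.70 after nonsense siRNA and 6.66 to 6.80 after YAP siRNA, with the highest in YAP siRNA replicate 3, and stromal and endothelial markers 6.57 to 6.69, 6.57 to 6.67 and 6.60 to 6.64. Of those 13, COL1A2 and PDGFRA rose in YAP siRNA against nonsense siRNA, by 0.43 and 0.35 (limma adjusted p of 5.38e-04 and 0.00194), PDGFRA also against untreated cells by 0.26 (limma adjusted p = 0.0221). The part of these signals in the members' values was not tested.

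Among the 7 genes of mitotic entry, all were below 0 in YAP siRNA against nonsense siRNA (median -0.13) and all above 0 in nonsense siRNA against untreated cells (median 0.13). CDK1, the catalytic partner of the mitotic cyclins, had signals of 8.47, 8.43 and 8.55 in untreated cells, 8.997, 8.52 and 9.02 after nonsense siRNA, and 8.74, 8.67 and 8.44 after YAP siRNA. Nonsense siRNA replicates 1 and 3 stood above the other 7 arrays, and replicate 2 lay within the untreated range. The difference between YAP siRNA and nonsense siRNA was -0.23 (SE 0.108, 95% CI -0.46 to -0.003, limma adjusted p = 0.308). CCNB1, the B-type cyclin that drives entry into mitosis, was at 10.10, 10.30 and 10.08 in untreated cells, 10.38, 10.28 and 10.40 after nonsense siRNA, and 10.37, 10.37 and 10.19 after YAP siRNA. Both siRNA groups averaged above untreated cells in CCNB1, by 0.20 and 0.15 with limma adjusted p of 0.155 and 0.303, and the ranges overlapped. FOXM1, the forkhead factor that activates G2/M genes, was at 9.31, 9.19 and 9.05 in untreated cells, 9.26, 9.29 and 9.23 after nonsense siRNA, and 9.21, 9.21 and 9.19 after YAP siRNA. Its YAP siRNA arrays lay just under the nonsense siRNA arrays, at a difference of -0.05 (95% CI -0.19 to 0.08, limma adjusted p = 0.781), and within the untreated range. CCNB2, CCNA2, CDC25C, the phosphatase that activates CDK1, and MELK, a kinase of proliferating cells, were between -0.09 and -0.18 in that comparison.

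The mitotic kinases and the chromosomal passenger complex stood closest to 0, with medians of -0.04 for YAP siRNA against nonsense siRNA and 0.03 for nonsense siRNA against untreated cells over 6 genes. PLK1, the polo-like kinase of spindle assembly and mitotic exit, was at 9.39, 9.45 and 9.34 in untreated cells, 9.51, 9.44 and 9.52 after nonsense siRNA, and 9.39, 9.40 and 9.29 after YAP siRNA. The YAP siRNA arrays of PLK1 lay under those of nonsense siRNA and overlapped the untreated ones, with a difference of -0.13 (SE 0.0541, limma adjusted p = 0.243). AURKA, the kinase of centrosomes and spindle poles, was at 9.13, 9.16 and 9.05 in untreated cells, 9.39, 9.13 and 9.20 after nonsense siRNA, and 9.21, 9.21 and 9.16 after YAP siRNA. In AURKA nonsense siRNA replicate 1 was high and the YAP siRNA arrays lay just above the untreated ones, by 0.08 (95% CI -0.06 to 0.22, limma adjusted p = 0.591). AURKB, the kinase of the passenger complex, was at 9.35, 9.41 and 9.45 in untreated cells, 9.37, 9.35 and 9.46 after nonsense siRNA, and 9.39, 9.44 and 9.41 after YAP siRNA. All 3 groups of AURKB overlapped, and the difference between YAP siRNA and nonsense siRNA was 0.02 (95% CI -0.09 to 0.14, limma adjusted p = 0.906). BIRC5, which encodes the passenger protein survivin, was at 8.32, 8.22 and 8.40 in untreated cells, 8.16, 8.22 and 8.18 after nonsense siRNA, and 8.23, 8.34 and 8.31 after YAP siRNA. It ran the other way from most members: nonsense siRNA arrays were lowest, and the difference was 0.11 between YAP siRNA and nonsense siRNA (95% CI -0.02 to 0.23, limma adjusted p = 0.414). A second, dimmer probe set of BIRC5, with a mean of 6.43 and values from 6.36 to 6.50, did not share this direction. Its YAP siRNA arrays (6.385, 6.41 and 6.422) lay just under its nonsense siRNA arrays (6.491, 6.454 and 6.435). The untreated arrays of that probe set overlapped both. TPX2, which activates AURKA on the spindle, and CDCA8, the passenger subunit borealin, were at -0.04 and -0.05.

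Spindle checkpoint genes were mixed. MAD2L1, which encodes the checkpoint protein that holds CDC20 inactive, was at 8.63, 8.61 and 8.68 in untreated cells, 8.98, 8.65 and 9.07 after nonsense siRNA, and 8.80, 8.69 and 8.52 after YAP siRNA. Nonsense siRNA replicates 1 and 3 again stood above all others, and the difference between YAP siRNA and nonsense siRNA was -0.23 (SE 0.0912, 95% CI -0.43 to -0.04, limma adjusted p = 0.203). BUB1, a checkpoint kinase of the kinetochore, was at 8.95, 9.03 and 9.06 in untreated cells, 9.25, 9.04 and 9.18 after nonsense siRNA, and 9.04, 9.18 and 8.99 after YAP siRNA. Its groups overlapped at a difference of -0.09 (95% CI -0.23 to 0.05, limma adjusted p = 0.628). TTK, the kinase that starts checkpoint signalling, and BUB1B were at -0.15 and -0.12, while TRIP13, the ATPase that disassembles the checkpoint complex, and UBE2C, the ubiquitin-conjugating enzyme of the APC/C, were at 0.03 and 0.02. CDC20 was at 9.53, 9.54 and 9.501 in untreated cells, 9.48, 9.43 and 9.49 after nonsense siRNA, and 9.36, 9.32 and 9.504 after YAP siRNA. In CDC20 untreated cells had the highest mean and YAP siRNA replicates 1 and 2 the lowest values, while YAP siRNA replicate 3 lay within the untreated range. Against untreated cells CDC20 was at -0.13 with all 9 arrays (limma adjusted p = 0.277). With the same 1 array per group left out, YAP siRNA replicate 3 among them, it was at -0.19 (limma adjusted p = 0.0410). Those arrays were chosen with earlier results known, so this pass is a description and lends CDC20 no support.

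Of the kinetochore genes, 4 were measured and all were below 0 in YAP siRNA against nonsense siRNA. NDC80, the microtubule-binding subunit of the outer kinetochore, was at 8.04, 8.17 and 8.0 in untreated cells, 8.51, 8.18 and 8.40 after nonsense siRNA, and 8.21, 8.13 and 7.99 after YAP siRNA. It had the lowest difference of any member between YAP siRNA and nonsense siRNA, -0.25 (SE 0.0803, 95% CI -0.43 to -0.08, limma adjusted p = 0.0978), and nonsense siRNA replicate 2 lay within the YAP siRNA range. Between nonsense siRNA and untreated cells it was at 0.29 (limma adjusted p = 0.0981), the lowest adjusted p of a member there, and between YAP siRNA and untreated cells at 0.04. NUF2, its partner in the same complex, was at 0.24 between nonsense siRNA and untreated cells (limma adjusted p = 0.109). After YAP siRNA, NUF2 was at -0.04 against nonsense siRNA and at 0.20 against untreated cells. CENPE, a kinetochore motor, and CENPF were at -0.08 and -0.14.

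Spindle motors and microtubule proteins had the widest gap between the controls, with all 8 above 0 (median 0.19) and 6 of them without overlap between nonsense siRNA and untreated arrays (8.9% of all genes). ASPM, which focuses microtubules at spindle poles, was at 8.998, 8.94 and 8.96 in untreated cells, 9.23, 9.12 and 9.16 after nonsense siRNA, and 8.99, 9.05 and 8.84 after YAP siRNA. All 3 nonsense siRNA arrays of ASPM were above the other 6, also replicate 2, and the difference from YAP siRNA was -0.21 (SE 0.0597, 95% CI -0.34 to -0.08, limma adjusted p = 0.0622). HMMR was at 7.53, 7.48 and 7.46 in untreated cells, 7.72, 7.38 and 7.74 after nonsense siRNA, and 7.56, 7.63 and 7.34 after YAP siRNA. Here nonsense siRNA replicate 2 was under all untreated arrays and the groups overlapped (-0.10, 95% CI -0.29 to 0.09, limma adjusted p = 0.680). KIF4A, a chromosome-bound kinesin, and NUSAP1, a microtubule bundler, were at -0.20 and -0.17 against nonsense siRNA, and KIF11, the motor that separates spindle poles, DLGAP5, KIF2C, a microtubule depolymerase, and KIF18A between -0.08 and -0.01.

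Among the 8 genes of chromosome condensation and chromatid separation the median was -0.10 between YAP siRNA and nonsense siRNA. SMC4, a core ATPase of condensin, was at 9.68, 9.72 and 9.52 in untreated cells, 9.96, 9.74 and 9.86 after nonsense siRNA, and 9.73, 9.68 and 9.57 after YAP siRNA. Nonsense siRNA arrays were above all others, replicate 2 by a narrow margin, and the difference was -0.20 (SE 0.0693, limma adjusted p = 0.152). TOP2A, the topoisomerase that untangles sister chromatids, was at 10.21, 10.19 and 10.09 in untreated cells, 10.33, 10.19 and 10.34 after nonsense siRNA, and 10.24, 10.29 and 10.05 after YAP siRNA. Its groups overlapped (-0.09, 95% CI -0.24 to 0.05, limma adjusted p = 0.597). NCAPG was at 10.40, 10.30 and 10.31 in untreated cells, 10.44, 10.36 and 10.25 after nonsense siRNA, and 10.32, 10.29 and 10.27 after YAP siRNA, all overlapping. The condensin subunits thus did not share one pattern: SMC2 was at -0.15, NCAPH at -0.10 and NCAPG at -0.06, while NCAPD2 was at 0.04. PTTG1, the separase inhibitor securin, was at -0.17, and ESPL1, which encodes separase, at -0.00.

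All 7 cytokinesis genes were below 0 against nonsense siRNA, with a median of -0.10. After KIF23 the lowest was ANLN, the actin-binding scaffold of the contractile ring, at -0.22 (SE 0.0696, limma adjusted p = 0.0938). RACGAP1, which pairs with KIF23 in centralspindlin, was at -0.10 against nonsense siRNA and at -0.11 against untreated cells. ECT2, the RhoA exchange factor that centralspindlin recruits, PRC1, which bundles midzone microtubules, KIF20A and KIF14 were between -0.15 and -0.02.

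**Figure D4:**
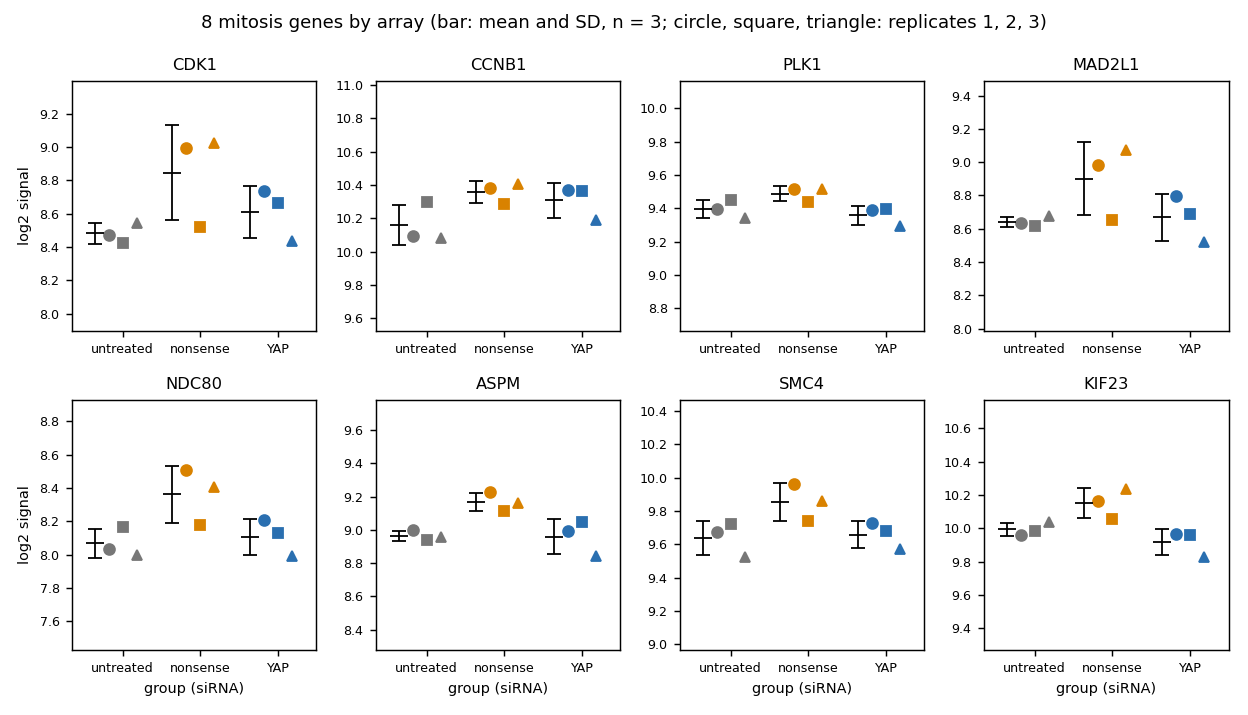
Log2 signals of 8 mitosis genes (y axis, each panel spanning the same range of log2 units) in untreated, nonsense siRNA and YAP siRNA arrays (x axis); symbols are replicates 1, 2 and 3 and bars are mean and SD of 3. In CDK1, MAD2L1 and NDC80 the nonsense siRNA square, replicate 2, lies well below the other nonsense siRNA arrays, and in KIF23 and ASPM all 3 lie above the other groups.

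Medians were also taken over members with TTTGAA in a promoter and members without. Between YAP siRNA and nonsense siRNA the median was -0.10 over the 22 measured members with it and -0.09 over the 18 without, and between nonsense siRNA and untreated cells 0.13 and 0.15. For YAP siRNA against untreated cells they were -0.01 with it and 0.05 without, and against both controls -0.07 and -0.03. No test was made of this.

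Other genes of mitosis, a list of 97 with 95 measured, held larger single differences after YAP siRNA than the members did. This list was longer than that of the members and was chosen with earlier results known, so its counts are a description. Against nonsense siRNA 6 fell and 1 rose (2.61% and 1.92% of all genes), against untreated cells 2 fell and 0 rose (1.46% and 1.63%), and against the mean of both controls 4 fell and 0 rose (2.11% and 2.26%). The median over the list was -0.06, 0.01 and -0.02 in these comparisons, beside -0.09, 0.02 and -0.04 over the members. LMNB1, which encodes the nuclear lamina protein lamin B1, was at 9.08, 9.03 and 9.14 in untreated cells, 9.25, 9.08 and 9.26 after nonsense siRNA, and 8.64, 8.67 and 8.73 after YAP siRNA. The YAP siRNA arrays were below all 6 controls, and LMNB1 fell by 0.52 against nonsense siRNA (SE 0.0593, limma adjusted p = 8.28e-05) and by 0.41 against untreated cells (limma adjusted p = 0.00108). CDC23, a scaffold subunit of the APC/C, was at 8.89, 8.94 and 8.87 in untreated cells, 9.12, 9.01 and 9.08 after nonsense siRNA, and 8.65, 8.55 and 8.47 after YAP siRNA. It too was below all controls in every YAP siRNA array, and fell by 0.51 against nonsense siRNA (SE 0.0578, limma adjusted p = 7.29e-05) and by 0.34 against untreated cells (limma adjusted p = 0.00320). Both genes passed in all 9 fits that left out 1 array, against either control, with a highest adjusted p of 0.0250.

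SPDL1, which encodes Spindly, the adaptor for dynein at kinetochores, was at 8.72, 8.73 and 8.70 in untreated cells, 8.91, 8.62 and 8.94 after nonsense siRNA, and 8.50, 8.48 and 8.13 after YAP siRNA. Every YAP siRNA array was below the controls, and SPDL1 fell by 0.45 against nonsense siRNA (SE 0.0937, limma adjusted p = 0.00946), a call lost without nonsense siRNA replicate 1 (0.0615) or 3 (0.0502) and with all probe sets tested (0.123). Against untreated cells it was at -0.34 (limma adjusted p = 0.0638). BUB3, the checkpoint protein that brings BUB1 to kinetochores, was at 9.86, 9.84 and 9.86 in untreated cells, 10.06, 9.99 and 10.17 after nonsense siRNA, and 9.83, 9.77 and 9.66 after YAP siRNA. Its order was nonsense siRNA, untreated, YAP siRNA with no overlap, and it fell by 0.32 against nonsense siRNA (SE 0.0603, limma adjusted p = 0.00454) and was at -0.10 against untreated cells (limma adjusted p = 0.451). Its call against the mean of both controls was lost in 6 of 9 fits without 1 array, those without untreated replicate 1 or 2, nonsense siRNA replicate 1 or 3, or YAP siRNA replicate 2 or 3 (highest adjusted p = 0.141). ZW10, a kinetochore protein of the checkpoint, was at 7.71, 7.83 and 7.67 in untreated cells, 7.48, 7.41 and 7.49 after nonsense siRNA, and 7.73, 7.75 and 7.63 after YAP siRNA.

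Only the nonsense siRNA arrays of ZW10 were low: it rose by 0.25 in YAP siRNA against nonsense siRNA (limma adjusted p = 0.0216) and fell by 0.28 in nonsense siRNA against untreated cells (limma adjusted p = 0.0427). Leaving out 1 array ended the first call in 4 of 9 fits (nonsense siRNA replicate 1 or 3, YAP siRNA replicate 1 or 2; highest adjusted p = 0.102) and the second in 7, all but those without nonsense siRNA replicate 2 or YAP siRNA replicate 3 (highest 0.211). MASTL, the Greatwall kinase that restrains the phosphatase opposing CDK1, rose by 0.30 in nonsense siRNA against untreated cells (SE 0.0558, limma adjusted p = 0.0253), from 8.72, 8.67 and 8.61 to 9.01, 8.94 and 8.96, with 8.76, 8.88 and 8.75 after YAP siRNA. That call was lost in 5 of 9 such fits (each untreated array, and nonsense siRNA replicates 1 and 3; highest adjusted p = 0.206). The other genes that fell against nonsense siRNA were CEP55 and CKAP2L, named after their values were seen, by 0.22 and 0.21; CEP55 was lost in 7 of 9 such fits, all but those without untreated replicate 3 or nonsense siRNA replicate 2 (highest adjusted p = 0.216), and CKAP2L in all 9 (0.239).

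**Figure D5:**
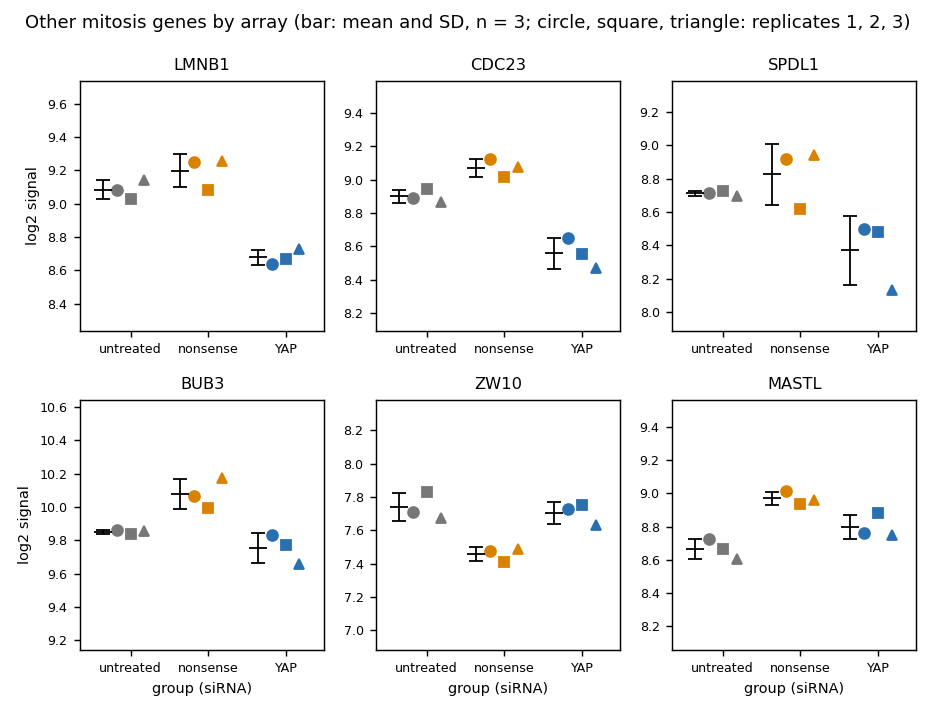
Log2 signals of LMNB1, CDC23, SPDL1, BUB3, ZW10 and MASTL (y axis, same range of log2 units in each panel) by group (x axis); symbols are replicates 1, 2 and 3 and bars are mean and SD of 3. LMNB1 and CDC23 are below all 6 control arrays in every YAP siRNA array, ZW10 is lowest and MASTL highest after nonsense siRNA.

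For earlier phases of the cell cycle, 29 measured genes of the G1/S transition and DNA replication gave 5 lower and 0 higher after YAP siRNA against nonsense siRNA (2.61% and 1.92% of all genes) and 3 lower and 1 higher against untreated cells (1.46% and 1.63%). POLA1, SLBP and RRM2 fell against both controls, POLA1 by 0.36 and 0.25, SLBP by 0.32 and 0.27 and RRM2 by 0.32 and 0.25. The limma adjusted p values were 0.00156 and 0.0294 for POLA1, 0.00135 and 0.00823 for SLBP, and 0.00753 and 0.0462 for RRM2. How far these calls depend on single arrays was not examined. Their list median was -0.11 and 0.00 in these comparisons, beside -0.09 and 0.02 for the mitosis genes. Whether the lists differ was not tested.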

How the data were processed

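Total RNA of 9 Hep3B samples was hybridised to Affymetrix gene arrays, 3 per group. The deposited values were read as log2 signals per probe set, from their size. How the authors corrected background, summarised probes and scaled arrays is, for the sources used here, not given. No further scaling was applied. Of 33297 probe sets, 19460 had 1 gene in the platform annotation, 1754 several and 12083 were not listed, which gave 18417 genes, each by its brightest probe set.

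Group means over the 9 arrays were fitted in limma 3.58.1 (R 4.3.3; lmFit, contrasts.fit, eBayes), with a two-sided moderated test and Benjamini-Hochberg adjustment over all genes; genes passed at an adjusted p under 0.05. Differences are the first group minus the second on the log2 scale. The fit was checked on simulated data. Replicate numbers were not used to pair the samples in this fit. Figures used Python 3.11.15 and matplotlib 3.10.9.

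Members, lists, roles and alternatives were chosen with earlier results of these data known. All members are accounted for. Values by array are given for members that passed, the member with the largest difference per role, the brightest and dimmest, 10 members fixed by name (CCNB1, CDK1, FOXM1, PLK1, AURKA, AURKB, BUB1, TOP2A, BIRC5, KIF23), up to 4 called genes per direction among other mitosis genes, and CDC20, added after its values were seen.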

Additional observations from a re-analysis of the deposited data

How the results depend on the processing

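The members' medians moved by less than the spread between replicates (0.0649) in all 4 comparisons under each alternative run, and YAP1 passed in each. That bar is wider than the medians for YAP siRNA against untreated cells (0.02) and against both controls (-0.04), so it cannot show that they held. With the small RNA covariate the first of these was at -0.0064, and nonsense siRNA against untreated cells went from 0.13 to 0.07. With 1 array left out, the median ranged from -0.13 to -0.05 for YAP siRNA against nonsense siRNA, from 0.12 to 0.18 for nonsense siRNA against untreated cells, from -0.0045 to 0.06 for YAP siRNA against untreated cells and from -0.07 to 0.0062 against both controls, the sign of the last turning without YAP siRNA replicate 3. The counts of members that passed in those fits were 0 to 10, 0 to 14, 0 to 2 and 0 to 0, and YAP1 was at -1.20 to -1.16. Over all genes the counts were 426 to 1231, 11 to 1470, 279 to 775 and 424 to 941 in the same order. For YAP siRNA against nonsense siRNA, 1 member passed as reported (834 genes in all). With arrays centred on their median (673 genes in all) or all probe sets tested (424 probe sets), 0 members passed. The same held with only the arrays compared (725 genes) and the replicate block (789). With the small RNA covariate (825) or an adjusted p under 0.01 (396) it was also 0. Among genes above the 50th percentile of signal 2 members passed, where 891 genes of that smaller set did. At an adjusted p under 0.10, 5 passed (6.5% of all genes), and with array weights 11 (13.1%). Without 3 arrays together (the third untreated, the second nonsense siRNA and the third YAP siRNA array) 9 passed (6.99%). Against untreated cells 7 members passed without the 3 arrays and 5 with array weights (8.47% and 9.55% of all genes). Against both controls it was 1 and 1, CDC20 each time (6.17% and 10.7%). Which 3 arrays to leave out was chosen with earlier results known. For nonsense siRNA against untreated cells 21 and 20 passed (12.6% and 14.2% of all genes), and 1 at an adjusted p under 0.10 (2.38%). Array weights were 0.453 for nonsense siRNA replicate 2 and 0.462 for YAP siRNA replicate 3, the lowest of the 9. Deviations of same-numbered samples had correlations from -0.337 to 0.344 across genes, and from -0.274 to 0.551 over the members. With 3 arrays per group these do not settle whether the numbers pair the samples. In the replicate block the KIF23 limma adjusted p was 0.0579. All genes called in nonsense siRNA against untreated cells numbered 113, and 11 to 1470 with 1 array left out.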
